A study of Homo sapiens with 15 samples.

Results

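The 4 arrays of T-derived Hodgkin lymphoma cell lines were set against 6 arrays of B-derived Hodgkin lines, 10 of the 15 arrays in the series. The T-derived arrays were HDLM2 (2 arrays), L540 (1 array) and L540Cy (1 array), and the B-derived arrays were L428, L1236 and KM-H2 (2 arrays each). Members were chosen by line name. The labels give classical Hodgkin lymphoma as the malignancy of all 6 lines, and the T or B origin is background knowledge on the lines. Total RNA was hybridised to Affymetrix U133 Plus 2.0 arrays, which carry 54675 probe sets, and no genotype or treatment is labelled. The series text calls the duplicate arrays biological, but nothing shows how far apart the cultures were, so tests on arrays measure only the spread between these samples. L540Cy is a subline of L540, so their arrays were averaged as 1 line of origin, which left 2 T-derived against 3 B-derived lines. Each line descends from a single tumour, and a difference between the sets is a difference between these 5 lines. The other 5 arrays (Namalwa, SU-DHL-4 and Reh, lines of other B cell malignancies) served only to show where a level lay outside Hodgkin lymphoma. The 2 Reh arrays went apart in some genes, MS4A1 among them at 11.47 and 4.12, so values of Reh are given with that reserve.

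Hodgkin and Reed-Sternberg cells are the tumour cells of classical Hodgkin lymphoma and make up a small part of the tumour mass. In most cases they descend from germinal centre B cells that have lost much of the B cell programme, including the B cell receptor and its signalling chain. A minority carries rearranged T cell receptor genes, and HDLM2 and L540 are the usual line models of that kind. Both kinds express CD30 (TNFRSF8), the transcription factors BATF3 and IRF4, and active NF-kB and JAK-STAT signalling. T cells recognise antigen through a receptor whose signal passes through the CD3 chains and the zeta chain CD247, and cytotoxic T cells kill with perforin and granzymes.

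Signals are RMA values on the log2 scale, where a difference of 1 is a doubling, and each gene is read from its brightest probe set. Array medians lay between 5.85 and 5.90 and upper quartiles between 8.01 and 8.18. Signals under 6 are called dim here. Duplicate arrays of a line differed by an SD of 0.240 to 0.361 over 19735 genes, and L540 and L540Cy by 0.536. HDLM2 and L540 differed by an SD of 0.968, T-derived from B-derived lines by 1.026 to 1.114, and the B-derived lines from each other by 0.940 to 1.069. The first principal component, 29% of the variance, placed the T-derived arrays at 54.93 to 59.74 and the B-derived arrays at -77.97 to -15.47. The sets did not overlap on it, but KM-H2 (-77.97 and -76.79) lay apart from L428 and L1236 (-22.36 to -15.47). On the second component, 25.1%, KM-H2 (-64.35 and -63.12) and the T-derived arrays (-32.76 to -17.4) were negative. L428 and L1236 lay at 51.46 to 60.36 there. The third component, 20.4%, parted HDLM2 from L540.

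**Figure D1:**
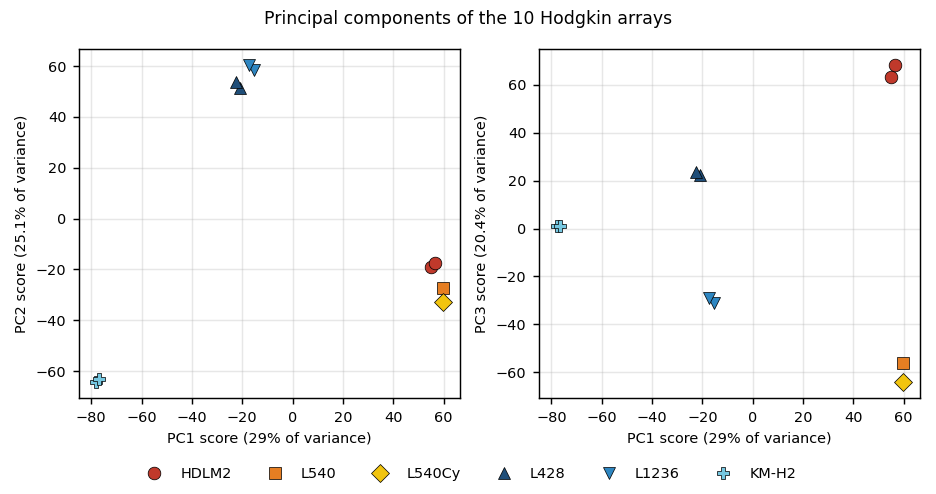
Scores of the 10 Hodgkin arrays on principal components 1 and 2 (left) and 1 and 3 (right), in arbitrary units, 1 point per array. The T-derived arrays (HDLM2, L540, L540Cy) lie at 54.93 to 59.74 on component 1, right of all B-derived arrays. KM-H2 parts from L428 and L1236 on components 1 and 2, and HDLM2 and L540 part on component 3.

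The T or B origin, which the labels do not give, was checked against lineage genes first. Among the CD3 and zeta chains of the T cell receptor, the zeta chain CD247 separated the sets. CD247 measured 9.98 and 10.40 in HDLM2, 10.21 in L540 and 10.50 in L540Cy, against 5.41 to 5.82 in the 6 B-derived arrays. The groups did not overlap, and the difference between line means was 4.70 ± 0.14 (SE, 2 against 3 lines), with an adjusted p of 0.025 by limma. Of its 2 probe sets 1 showed it, and the other differed by 0.09. The non-Hodgkin arrays lay between the sets, at 6.60 to 8.73.

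Other defining T cell genes were near the background in the T-derived lines. CD3E, which carries the receptor signal into the cell, measured 4.95 to 5.55 in the T-derived arrays and 5.01 to 5.58 in the B-derived arrays. CD3G, its partner chain, stayed at 4.08 to 4.95 in T-derived arrays and 4.30 to 4.81 in B-derived arrays. CD5, CD7, CD8A and the kinase LCK likewise gave no signal over 6.70 in any of the 10 arrays. The expression that did appear was line by line: the adhesion receptor CD2 measured 11.30 and 10.19 in HDLM2, 6.70 in L540 and 4.89 in L540Cy, against 4.52 to 4.97 in B-derived arrays. The coreceptor CD4 measured 6.20 and 6.34 in HDLM2, 10.51 in L540 and 10.53 in L540Cy. In the B-derived lines CD4 lay at 6.17 to 6.39 in L428 and L1236, and at 10.33 and 9.88 in KM-H2. KM-H2, a B-derived line, was also the Hodgkin line with the highest signals of CD3D (8.75 and 8.44) and of the receptor kinase ZAP70 (8.13 and 7.47). In the T-derived arrays CD3D gave 5.40 to 5.94 and ZAP70 5.15 to 5.63.

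B cell genes divided the Hodgkin lines no more cleanly. CD79A, the signalling chain of the B cell receptor, measured 5.68 to 6.22 in T-derived arrays and 5.67 to 6.33 in B-derived arrays, against 11.92 to 12.72 in the non-Hodgkin arrays. Its partner CD79B gave 5.34 to 5.66 in T-derived and 5.46 to 5.85 in B-derived arrays. MS4A1, which encodes CD20, stayed at 3.96 to 4.74 in T-derived arrays and 3.96 to 4.45 in B-derived arrays. PAX5, the master regulator of B cell identity, was high in 1 B-derived line: it gave 5.82 to 6.77 in T-derived arrays, against 10.99 and 10.63 in L1236, 7.38 and 7.04 in KM-H2 and 5.88 and 5.32 in L428. POU2AF1, a coactivator of octamer factors, followed the same pattern, with 3.84 to 4.56 in T-derived arrays, 11.61 and 10.86 in L1236 and 3.96 to 4.28 in L428 and KM-H2. EBF1, another B lineage factor, was present in a T-derived line, with 8.81 and 8.85 in HDLM2 and 4.83 and 5.37 in L540 and L540Cy, against 5.13 to 8.98 in B-derived arrays. BCL11A, a zinc finger factor needed for B cell development, had the largest difference of the B lineage factors, and is described with the leading genes.

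**Figure D2:**
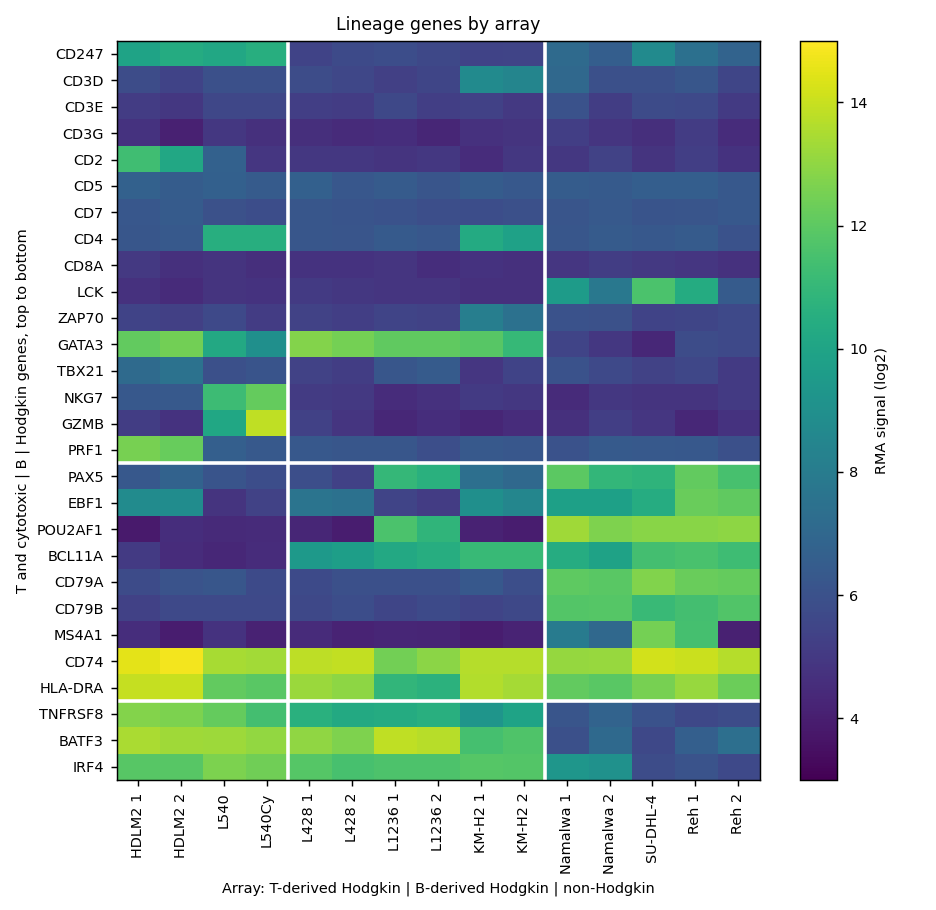
RMA signal (log2, colour) of 28 lineage genes (rows) in 15 arrays (columns), with T-derived Hodgkin arrays on the left, B-derived Hodgkin arrays in the middle and non-Hodgkin arrays on the right. CD247 is bright across the T-derived arrays and BCL11A across the B-derived and non-Hodgkin arrays, while CD3E, CD3G, CD79A, CD79B and MS4A1 are dim in all Hodgkin arrays.

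The Hodgkin markers were high in both sets. CD30 (TNFRSF8), a TNF receptor and the defining surface marker, measured 12.77 and 12.64 in HDLM2, 12.15 in L540 and 11.41 in L540Cy, against 9.24 to 10.64 in B-derived arrays and 5.62 to 6.83 in non-Hodgkin arrays. Every T-derived array was above every B-derived array. The difference of 2.06 passed the test against duplicate arrays (SE 0.15, adjusted p = 1.17e-05) and missed the test over line means (SE 0.44, adjusted p = 0.514, limma). BATF3, an AP-1 factor, gave 13.04 to 13.50 in T-derived and 11.47 to 13.83 in B-derived arrays, which overlapped. IRF4 gave 11.87 to 12.64 in T-derived and 11.53 to 11.83 in B-derived arrays.

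In all, 2 tests were used on the whole table. The first took the line of origin as the replicate, with 2 T-derived against 3 B-derived lines, and is the one that speaks of the sets. It called 9 genes higher in the T-derived lines (0.0456% of 19735 genes) and 1 gene lower (0.00507%), 10 genes or 0.0507% in all, at an adjusted p under 0.05 by limma. An unadjusted p under 0.05 was reached by 1320 genes. The calls depended on each line: without the line L540 (both its arrays), L428, L1236 or KM-H2 the same fit called 0 genes, with 1550, 1235, 1221 and 1416 genes at an unadjusted p under 0.05, and without HDLM2 it called 5 higher and 0 lower. They also moved with single arrays, to 4 higher and 0 lower without KM-H2 replicate 1 or without HDLM2 replicate 1, and to 0 lower without L1236 replicate 1, L428 replicate 2 or the L540 array. On the 8 numbered arrays, where HDLM2 is the only T-derived line, the fit with the replicate number as a block called 215 higher and 106 lower, and without that block 336 higher and 207 lower. The second test set the same difference against the spread between duplicate arrays, and says only that these particular lines differ. It called 3176 genes higher (16.1%) and 3754 lower (19%). In 3342 genes (16.9%) both T-derived lines lay above all 3 B-derived lines, and in 1727 genes (8.75%) both lay below them (25.7% in all), which is a description and no test. Among genes whose highest line mean was under 6 log2, 22.7% lay above and 3.67% below, and among brighter genes 13.7% lay above and 11.6% below. With arrays centred on their medians the split moved to 3960 above and 1324 below, so that 74.9% of the genes without overlap were above, against 65.9% as deposited.

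Of the genes higher in the T-derived lines, SEPTIN10, a GTP-binding septin of the cytoskeleton, had the largest difference. It measured 12.48 and 13.21 in HDLM2, 12.15 in L540 and 12.17 in L540Cy, against 3.23 to 3.49 in the 6 B-derived arrays. The non-Hodgkin arrays gave 3.23 to 3.37, so the signal was at background in every line but the T-derived ones. The difference of line means was 9.14 ± 0.24 (SE, adjusted p = 0.025, limma), and both of its probe sets showed it. SOWAHC, an ankyrin repeat gene, had the same pattern, with 13.21 and 13.05 in HDLM2, 11.52 in L540 and 11.41 in L540Cy, against 3.79 to 4.25 in B-derived arrays. Its difference was 8.32 ± 0.53 (SE over lines), with an adjusted p of 0.0785 over line means and 2.55e-09 against duplicate arrays. HDLM2 exceeded L540 by 1.67 ± 0.16 (SE) in SOWAHC (adjusted p = 8.84e-05).

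SEPTIN10 and SOWAHC are neighbours on chromosome 2 in the RefSeq annotation of GRCh38.p14 and are read in opposite directions from starts 398 bases apart. Their promoter windows, 250 bases before to 50 bases after each start, are shown because both genes are at background in all B-derived and non-Hodgkin arrays and share 103 bases of promoter. PRDX2 and RGS13, 2 other leading genes described below, are printed for contrast in their content of the CG dinucleotide, the site of DNA methylation in vertebrates, which was not measured here. Capitals mark each CG, and each sequence is read 5′ to 3′ on the strand of its gene.
SEPTIN10, chr2:109613917-109614216, minus strand: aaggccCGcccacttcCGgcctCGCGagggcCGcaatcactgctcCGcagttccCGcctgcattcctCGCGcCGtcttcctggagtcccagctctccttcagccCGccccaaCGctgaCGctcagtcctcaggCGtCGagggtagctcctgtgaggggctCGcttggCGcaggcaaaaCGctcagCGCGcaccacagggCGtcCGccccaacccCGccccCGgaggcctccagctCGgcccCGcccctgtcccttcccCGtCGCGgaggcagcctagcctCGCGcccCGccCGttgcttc
SOWAHC, chr2:109614114-109614413, plus strand: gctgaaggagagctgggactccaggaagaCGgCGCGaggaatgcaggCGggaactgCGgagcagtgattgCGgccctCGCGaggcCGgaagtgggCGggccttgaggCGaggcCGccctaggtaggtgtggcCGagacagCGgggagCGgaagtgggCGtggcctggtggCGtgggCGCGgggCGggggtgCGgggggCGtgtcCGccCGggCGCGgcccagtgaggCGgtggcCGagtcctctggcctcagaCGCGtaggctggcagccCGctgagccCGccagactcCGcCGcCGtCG
PRDX2, chr19:12801751-12802050, minus strand: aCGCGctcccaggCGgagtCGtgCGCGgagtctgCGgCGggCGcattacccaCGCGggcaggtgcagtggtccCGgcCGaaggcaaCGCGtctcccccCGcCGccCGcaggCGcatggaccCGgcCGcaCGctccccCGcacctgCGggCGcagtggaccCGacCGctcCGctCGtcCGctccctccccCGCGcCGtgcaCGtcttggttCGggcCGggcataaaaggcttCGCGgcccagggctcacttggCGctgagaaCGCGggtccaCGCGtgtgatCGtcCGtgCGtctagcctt
RGS13, chr1:192635897-192636196, plus strand: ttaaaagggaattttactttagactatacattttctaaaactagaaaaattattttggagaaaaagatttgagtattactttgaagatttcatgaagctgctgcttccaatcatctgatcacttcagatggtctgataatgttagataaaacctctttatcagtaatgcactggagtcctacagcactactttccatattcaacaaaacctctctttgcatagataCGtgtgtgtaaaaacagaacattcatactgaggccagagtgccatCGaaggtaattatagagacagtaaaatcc
SEPTIN10 holds 33 CG dinucleotides in its 300 bases, more than 82.8% of the 35116 RefSeq promoters of that length. SOWAHC holds 36, PRDX2 46 and RGS13 2, against a median of 14. All 24 leading genes matched a RefSeq promoter, and they ranged from 0 CG in C4orf54 to 46 in PRDX2.

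PRDX2, a peroxiredoxin that breaks down hydrogen peroxide, was high in T-derived and non-Hodgkin lines and dim in the B-derived Hodgkin lines. It measured 12.99 and 12.74 in HDLM2, 12.08 in L540 and 11.92 in L540Cy, against 3.83 to 4.48 in B-derived arrays, with 11.20 to 13.14 in the non-Hodgkin arrays. The difference was 8.32 ± 0.30 (SE, adjusted p = 0.0298, limma). Its 4 probe sets disagreed: 2 differed by over 1 log2, the range was 0.13 to 8.32, and their mean differed by 2.65.

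IL26, a cytokine of the IL10 family made by activated T cells, was bright in the T-derived lines and dim in all others measured. It measured 9.36 and 11.14 in HDLM2, 10.96 in L540 and 11.69 in L540Cy, against 3.25 to 3.59 in B-derived arrays and 3.38 to 3.59 in non-Hodgkin arrays. The difference was 7.41 ± 0.36 (SE, adjusted p = 0.0393, limma). All T-derived arrays lay far above the B-derived ones.

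The other calls were of smaller size. CD163L1, a scavenger receptor relative of CD163, gave 8.34 to 9.32 in T-derived and 5.07 to 5.77 in B-derived arrays, a difference of 3.45 ± 0.16. Reh gave 7.59 and 9.69 for CD163L1, and the other non-Hodgkin arrays 5.25 to 5.87. GCHFR, the feedback regulator of the first enzyme of tetrahydrobiopterin synthesis, gave 7.76 to 8.50 in T-derived and 4.61 to 5.10 in B-derived arrays. It was also high in the non-Hodgkin arrays, at 7.94 to 11.27. TRAF3IP2, the adaptor of the IL17 receptor, gave 8.91 to 9.94 in T-derived and 6.11 to 6.68 in B-derived arrays, but 1 of its 2 probe sets differed by 0.22. The non-Hodgkin arrays gave 7.64 to 10.38 for TRAF3IP2, above the B-derived arrays. With the mean of its probe sets TRAF3IP2 had an adjusted p of 0.0678. RFPL1S gave 5.78 to 7.39 in T-derived and 3.41 to 3.84 in B-derived arrays, and CCDC3 gave 8.52 to 8.996 in T-derived and 6.07 to 6.58 in B-derived arrays. Neither of these overlapped, and the adjusted p was 0.0393 for both. In RFPL1S, L540 gave 7.39 and L540Cy 5.78, and their mean of 6.58 lay beside the 6.65 of HDLM2. For CD163L1, GCHFR, RFPL1S and CCDC3 the SE over lines (0.11 to 0.16) was below the SE from duplicate arrays (0.14 to 0.19). These calls thus rest on a spread between lines smaller than that between duplicates.

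RCAN2, an inhibitor of the phosphatase calcineurin, and ADCY1, an adenylyl cyclase that makes cyclic AMP, had larger differences that varied between lines. RCAN2 measured 11.45 and 11.49 in HDLM2, 10.91 in L540 and 9.32 in L540Cy, against 3.90 to 4.02 in L428 and L1236 and 4.87 and 5.43 in KM-H2. ADCY1 measured 9.69 and 9.43 in HDLM2, 10.13 in L540 and 12.23 in L540Cy, against 3.94 to 6.04 in B-derived arrays. The differences were 6.44 ± 0.61 and 5.60 ± 0.83 (SE over lines), with adjusted p of 0.165 and 0.329 over line means. Both passed the test against duplicate arrays. For ADCY1, 2 of 5 probe sets differed by over 1 log2.

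**Figure D3:**
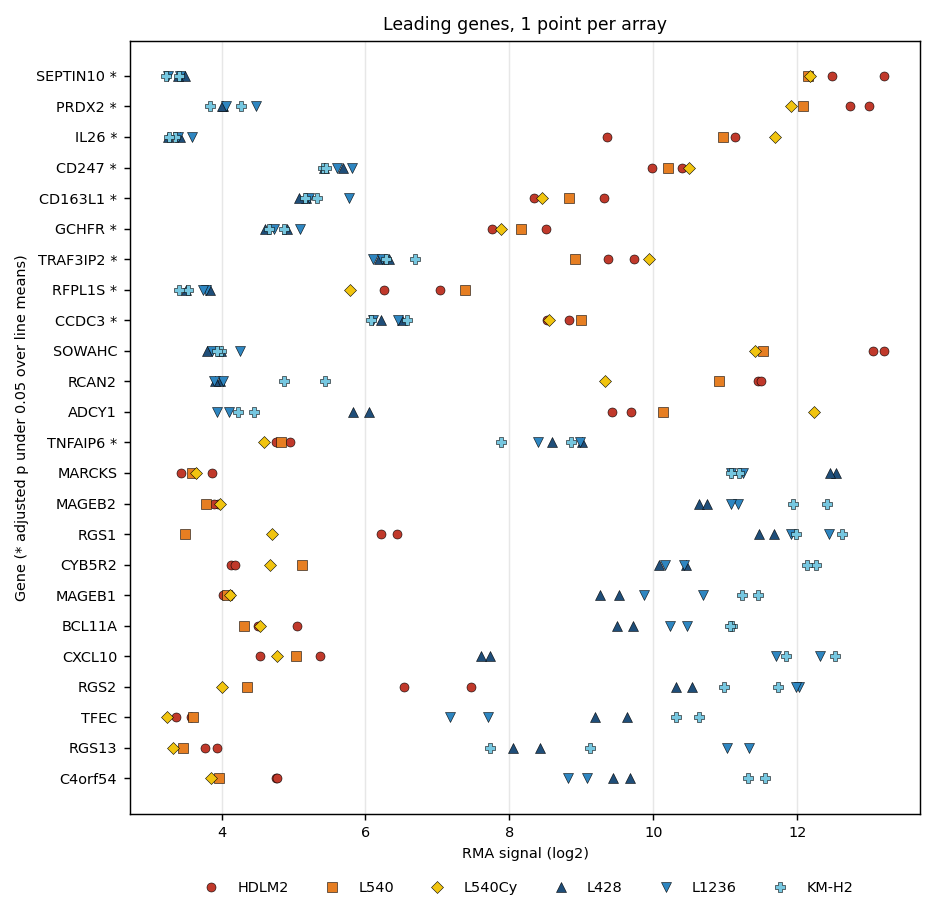
RMA signal (log2, horizontal axis) of the 24 leading genes in the 10 Hodgkin arrays, 1 point per array, with T-derived lines in red to yellow and B-derived lines in blue. The upper 12 genes are those higher in T-derived lines, led by SEPTIN10 at 12.15 to 13.21 in T-derived and 3.23 to 3.49 in B-derived arrays, and the lower 12 those lower there. An asterisk marks an adjusted p under 0.05 over line means.

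TNFAIP6, a secreted hyaluronan-binding protein of inflammation, was the gene called lower in the T-derived lines over line means. It measured 4.75 and 4.95 in HDLM2, 4.82 in L540 and 4.59 in L540Cy, against 9.01 and 8.59 in L428, 8.39 and 8.98 in L1236 and 8.86 and 7.88 in KM-H2. The non-Hodgkin arrays lay at 4.48 to 4.89, so the B-derived lines alone were above background. The difference was -3.84 ± 0.18 (SE, adjusted p = 0.0393, limma), and both probe sets showed it. Its SE from duplicate arrays was larger, at 0.21.

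Larger differences in the same direction came with more spread between the lines of a set and did not pass that test. All of the following passed the test against duplicate arrays. MARCKS, an actin-binding substrate of protein kinase C, measured 3.43 to 3.87 in T-derived arrays, against 12.54 and 12.45 in L428 and 11.08 to 11.24 in L1236 and KM-H2. The difference was -7.96 ± 0.50 (SE over lines, adjusted p = 0.0785), all 5 probe sets differed by over 1 log2, and the non-Hodgkin arrays gave 3.47 to 3.74. The cancer-testis antigens MAGEB2 and MAGEB1, germline genes of the X chromosome that some tumours express, stood likewise. MAGEB2 gave 3.78 to 3.98 in T-derived and 10.63 to 12.41 in B-derived arrays, and MAGEB1 4.03 to 4.12 in T-derived and 9.26 to 11.45 in B-derived arrays. Both were at background in the non-Hodgkin arrays, at 3.73 to 4.30.

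The RGS genes shorten signals of G protein-coupled receptors, chemokine receptors among them. RGS1 measured 6.44 and 6.21 in HDLM2, 3.49 in L540 and 4.71 in L540Cy, against 11.46 to 12.62 in B-derived arrays. RGS2 measured 6.53 and 7.46 in HDLM2, 4.35 in L540 and 4.01 in L540Cy, against 10.32 to 12.02 in B-derived arrays. In RGS1 the SD was 1.58 over the T-derived lines and 0.39 over the B-derived lines, and in RGS2 1.99 and 0.79. RGS13, a germinal centre gene, gave 3.33 to 3.93 in T-derived arrays, against 8.04 and 8.43 in L428, 11.03 and 11.33 in L1236 and 7.74 and 9.12 in KM-H2. None of the 3 overlapped, and their differences were -6.80, -5.67 and -5.66. They are neighbours on chromosome 1 among the genes measured. For RGS1 and for RGS13, 2 of 3 probe sets differed by over 1 log2.

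BCL11A measured 5.05 and 4.51 in HDLM2, 4.31 in L540 and 4.53 in L540Cy, against 9.49 to 11.09 in B-derived arrays, and the non-Hodgkin arrays gave 9.91 to 11.54. The difference was -5.74 ± 0.49 (SE over lines, adjusted p = 0.128; 1.55e-08 against duplicate arrays), and all 4 probe sets differed by over 1 log2. CXCL10, an interferon-inducible chemokine that attracts T cells, gave 4.53 to 5.37 in T-derived arrays, against 7.73 and 7.61 in L428 and 11.71 to 12.52 in L1236 and KM-H2. TFEC, a factor of the MITF family, gave 3.24 to 3.61 in T-derived and 7.18 to 10.64 in B-derived arrays. CYB5R2, of the cytochrome b5 reductases, gave 4.13 to 5.12 in T-derived and 10.07 to 12.26 in B-derived arrays, and C4orf54 gave 3.86 to 4.77 in T-derived and 8.81 to 11.55 in B-derived arrays. In these 4 genes every T-derived array lay below every B-derived array.

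A wider set held 30 genes above (0.152% of all genes) and 37 below (0.187%) that passed the test against duplicate arrays, did not overlap between lines and differed by at least 4 log2. Of the 30 that were high in T-derived lines, 19 had all 3 non-Hodgkin lines nearer the B-derived level, and 3 had all 3 nearer the T-derived level, PRDX2, the co-chaperone gene DNAJC15 and SEL1L3. Of the 37 that were low in T-derived lines, 14 had all 3 non-Hodgkin lines nearer the T-derived level, as MARCKS had. For 7 of them all 3 non-Hodgkin lines were nearer the B-derived level, among them BCL11A, LEF1, RGS13 and ZNF91. The first group therefore held mostly genes not shared with the other B cell lines, and the second was mixed. Sides were taken from line means, and single arrays could lie otherwise. RGS13 gave 6.30 and 10.22 in Namalwa, 12.80 in SU-DHL-4 and 11.96 and 4.90 in Reh. SEL1L3 ranged from 4.29 to 12.23 in the non-Hodgkin arrays, against a mean of 4.70 in the B-derived lines. DNAJC15 had line means of 12.17 in HDLM2 and 11.22 in L540, against 4.81 in L428, 6.79 in L1236 and 10.41 in KM-H2. PPARG, a lipid-activated nuclear receptor, had 9.85 in HDLM2 and 8.87 in L540, against 4.41 to 4.54 in the 3 B-derived lines. HOPX, a small homeodomain protein found in effector T cells, had 12.20 in HDLM2 and 12.93 in L540, against 6.02, 7.32 and 7.92 in L428, L1236 and KM-H2. These genes and ZNF91 were picked after their values were seen.

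IL2RA, IL2RB and IL6R were higher in the T-derived lines against duplicate arrays, while the cytokine receptors as a list went both ways. Of 37 receptor genes measured, 14 were higher (37.8%) and 10 lower (27%) against duplicate arrays, where all genes had 16.1% and 19%. In 10 both T-derived lines lay above all B-derived lines (27%, against 16.9% of all genes) and in 3 below (8.11%, against 8.75%). By limma over line means 0 were called, with 3 higher and 1 lower at an unadjusted p under 0.05. The list median was 0.13, against 0.04 over all genes. Without L540Cy 13 were higher and 11 lower with a median of -0.06, and without the L540 array 14 were higher and 5 lower with a median of 0.21. IL2RA, the alpha chain of the IL2 receptor, measured 11.48 and 12.03 in HDLM2, 10.99 in L540 and 11.29 in L540Cy, against 6.94 and 6.36 in L428, 8.01 and 7.22 in L1236 and 6.05 and 7.08 in KM-H2. The difference was 4.50 ± 0.42 (SE over lines, adjusted p = 0.164), with no overlap. IL6R, the receptor that binds IL6, gave 7.94 to 9.27 in T-derived and 3.76 to 4.83 in B-derived arrays, a difference of 4.37 ± 0.25 (adjusted p = 0.0661, and 4.15e-07 against duplicate arrays). IL2RB, the beta chain shared by the IL2 and IL15 receptors, gave 12.19 to 12.62 in T-derived and 9.11 to 10.90 in B-derived arrays. The third chain of that receptor, IL2RG, was at 10.62 to 10.82 in the T-derived lines and 10.41 to 11.77 in the B-derived lines. IL2RG was named after its values were seen. IL7R was high in L540 and L540Cy, at 9.31 and 9.39, against 5.96 and 6.57 in HDLM2 and 5.24 to 6.33 in B-derived arrays.

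Downstream of these receptors, the JAK-STAT list had 14 of 24 genes higher and 5 lower against duplicate arrays, where all genes had 16.1% and 19%. Of them 5 lay above all B-derived lines (20.8%) and 1 below (4.17%), against 16.9% and 8.75% of all genes. By limma over line means 0 were called, with 3 higher at an unadjusted p under 0.05, and the median was 0.45. The feedback inhibitor SOCS3 measured 10.51 and 10.05 in HDLM2, 10.49 in L540 and 11.23 in L540Cy, against 7.47 and 7.26 in L428, 8.53 and 9.15 in L1236 and 6.62 and 7.78 in KM-H2. Of the 4 SOCS3 probe sets, 2 differed by over 1 log2. PIM1, a kinase that is a STAT target, gave 8.92 to 10.12 in T-derived and 7.50 to 8.49 in B-derived arrays. BCL6, a repressor of germinal centre cells that is also counted in this list, gave 9.68 to 10.92 in T-derived and 4.98 to 10.28 in B-derived arrays, where the arrays overlapped and the line means did not. The STAT factor STAT5B had line means of 10.58 in HDLM2 and 10.51 in L540, against 9.22 to 9.74 in the B-derived lines, and STAT4 differed by -1.72. STAT5B and STAT4 were named after their values were seen.

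Among 31 interleukins and colony stimulating factors, 10 were higher (32.3%) and 6 lower (19.4%) against duplicate arrays, where all genes had 16.1% and 19%. In this list 6 lay above all B-derived lines (19.4%) and 2 below (6.45%), against 16.9% and 8.75% of all genes. IL26 alone was called over line means. The T helper 2 cytokine IL13 was a product of single lines, with 10.93 and 10.20 in HDLM2 and 5.89 and 6.05 in L540 and L540Cy, against 8.60 and 8.07 in L428 and 5.59 to 7.07 in L1236 and KM-H2. IL5, another such cytokine, was expressed only in L428 among the Hodgkin arrays, at 7.33 and 7.53, against 3.53 to 3.74 in T-derived and 3.55 to 3.82 in the other B-derived arrays.

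Chemokines were more often lower than higher. Of 23 measured, 2 were higher (8.7%) and 8 lower (34.8%) against duplicate arrays, where all genes had 16.1% and 19%. In this list 1 lay above all B-derived lines (4.35%) and 5 below (21.7%), against 16.9% and 8.75% of all genes. The median was -0.11. Without the L540 array 1 was higher and 8 lower. HDLM2 by itself was less one-sided, above all B-derived lines in 6 (26.1%) and below in 7 (30.4%), against 30.9% and 22.3% of all genes. L540 lay above in 3 (13%) and below in 9 (39.1%), against 33.9% and 20.2% of all genes. On the numbered arrays, with HDLM2 as the T-derived line, 5 were higher and 7 lower with and without the replicate block. In 12 of the 23, the highest line mean was under 6 log2. CCL5, which attracts T cells and monocytes, measured 8.54 and 7.73 in HDLM2, 9.68 in L540 and 10.10 in L540Cy, against 11.33 to 12.84 in B-derived arrays, a difference of -2.93 ± 0.63 (SE over lines, adjusted p = 0.52). CXCL10 was described above. CCL20 gave 3.62 to 3.99 in T-derived arrays and was high in KM-H2 alone, at 8.43 and 8.48. CCL17, the ligand of CCR4 that Hodgkin cells secrete, did not separate the sets: it gave 14.55 and 14.47 in HDLM2 and 6.20 and 7.34 in L540 and L540Cy, against 8.57 to 13.66 in B-derived arrays. Of 18 chemokine receptors, 4 were higher (22.2%) and 3 lower (16.7%), and 0 lay above and 1 below (5.56%) all B-derived lines. That 1 was CXCR3, at 6.07 to 6.51 in T-derived and 6.45 to 7.56 in B-derived arrays.

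TNF family ligands and receptors had 8 of 35 higher (22.9%) and 12 lower (34.3%) against duplicate arrays, where all genes had 16.1% and 19%. In this list 6 lay above and 6 below all B-derived lines (17.1% each), against 16.9% and 8.75% of all genes. The ligands CD70 and TNFSF9, which bind the costimulatory receptors CD27 and TNFRSF9, were low in T-derived lines. TNFSF9 gave 4.16 to 4.996 in T-derived and 7.31 to 9.57 in B-derived arrays, and CD70 7.66 to 8.55 in T-derived and 9.88 to 11.89 in B-derived arrays. TNFRSF1B, the second TNF receptor, gave 7.24 to 8.79 in T-derived and 5.58 to 5.88 in B-derived arrays, the highest difference of the list at 2.31. The costimulatory receptor CD40, central to B cell activation, gave 7.68 to 9.53 in T-derived and 9.42 to 11.06 in B-derived arrays. In NF-kB subunits and targets, 9 of 27 were higher and 9 lower (33.3% each). The subunit REL gave 7.73 to 10.24 in T-derived and 10.43 to 11.42 in B-derived arrays, and GADD45B, a stress sensor, gave 6.81 to 7.09 in T-derived and 8.75 to 10.02 in B-derived arrays. BCL2A1, an antiapoptotic BCL2 relative, measured 6.42 and 8.05 in HDLM2, 4.002 in L540 and 8.57 in L540Cy, against 8.12 to 12.61 in B-derived arrays, so the subline lay 4.57 above its parent.

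**Figure D4:**
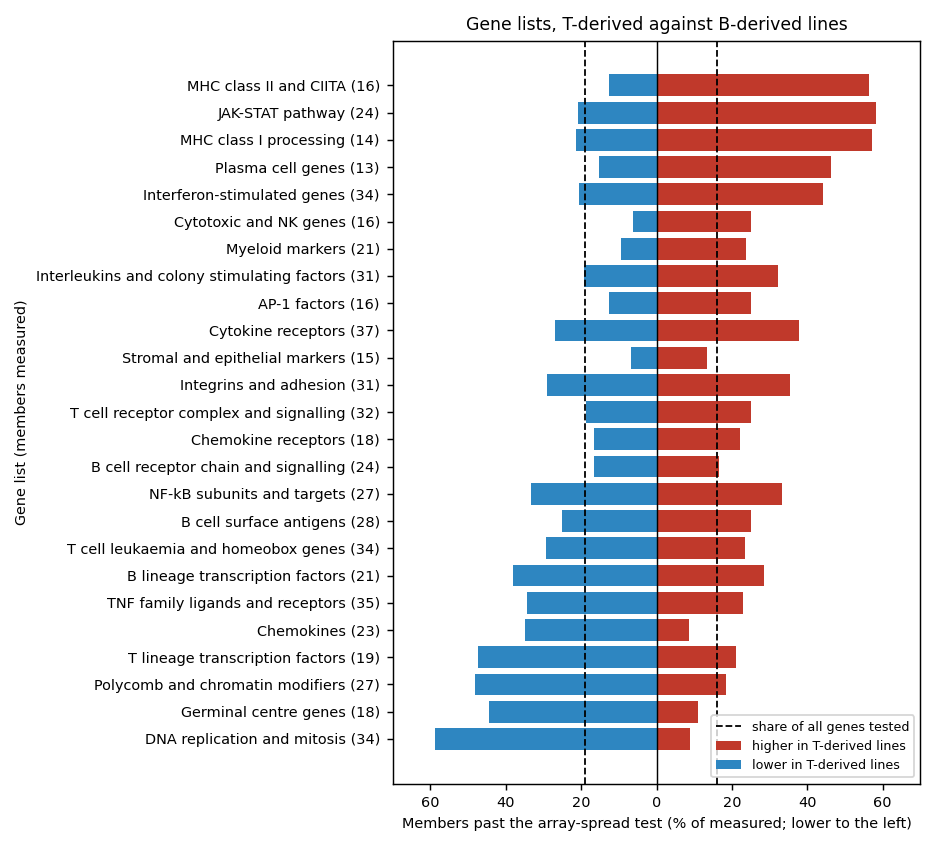
Share of measured members (%, horizontal axis) of 25 gene lists past the test against duplicate arrays, higher in T-derived lines to the right (red) and lower to the left (blue), with the number measured in brackets. Dashed lines mark all genes tested, 16.1% higher and 19% lower. JAK-STAT and MHC lists extend furthest right, and DNA replication and mitosis furthest left.

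Genes of T cell receptor signalling were not higher as a group. Of 32 measured, 8 were higher (25%) and 6 lower (18.8%) against duplicate arrays, where all genes had 16.1% and 19%. In 4 both T-derived lines lay above all B-derived lines (12.5%) and in 1 below (3.12%), against 16.9% and 8.75% of all genes. CD247 was called over line means, and in 11 the highest line mean was under 6 log2. T lineage transcription factors had 4 of 19 higher (21.1%) and 9 lower (47.4%), with 0 above and 2 below (10.5%) all B-derived lines, and a median of -0.27. LEF1, a WNT pathway factor of early lymphocytes, gave 7.64 and 6.95 in HDLM2 and 4.02 and 3.67 in L540 and L540Cy, against 8.46 to 11.33 in B-derived arrays. EOMES, a T-box factor of cytotoxic and memory T cells, gave 5.95 to 8.85 in T-derived and 8.67 to 11.82 in B-derived arrays. GATA3, the T helper 2 factor, was high in all 5 lines, with 12.13 and 12.43 in HDLM2, 10.23 in L540 and 8.97 in L540Cy, against 11.05 to 12.77 in B-derived arrays and 4.33 to 5.79 in non-Hodgkin arrays. TBX21, the T helper 1 factor, gave 7.16 and 7.54 in HDLM2 and 5.94 and 6.13 in L540 and L540Cy, against 4.91 to 6.42 in B-derived arrays.

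Few cytotoxic and NK genes differed, and the largest differences, in NKG7, GZMB and PRF1, were of unequal size in the 2 T-derived lines. Of 16 measured, 4 were higher (25%) and 1 lower (6.25%) against duplicate arrays, where all genes had 16.1% and 19%. In 11 the highest line mean was under 6 log2. With HDLM2 as the only T-derived line, on the numbered arrays, 2 were higher. In 5 both T-derived lines lay above all B-derived lines (31.2%) and in 1 below (6.25%), against 16.9% and 8.75% of all genes. But for GZMK, GNLY and CTSW, named after their values were seen, the set means differed by only 0.22, 0.15 and 0.10. These 3 did not pass the test. NKG7, a cytotoxic granule membrane protein, gave 6.30 and 6.35 in HDLM2, 11.24 in L540 and 12.15 in L540Cy, against 4.50 to 5.10 in B-derived arrays. GZMB, granzyme B, gave 5.18 and 4.78 in HDLM2, 10.15 in L540 and 13.86 in L540Cy, against 4.28 to 5.30 in B-derived arrays. PRF1, perforin, showed the reverse, with 12.55 and 12.23 in HDLM2 and 6.64 and 6.36 in L540 and L540Cy, against 5.90 to 6.34 in B-derived arrays. No T-derived line had both perforin and granzyme B well above the B-derived level.

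Among B lineage transcription factors, 6 of 21 were higher (28.6%) and 8 lower (38.1%) against duplicate arrays, where all genes had 16.1% and 19%. Of them 5 lay above (23.8%) and 3 below (14.3%) all B-derived lines, against 16.9% and 8.75% of all genes. ETV6 gave 9.85 to 11.58 in T-derived and 8.28 to 9.41 in B-derived arrays. The number lower was 5 when the spread came from all 15 arrays. The B cell receptor list had 4 of 24 higher and 4 lower (16.7% each), near the shares of all genes. In that list 5 lay above (20.8%) and 0 below, and with the spread from all 15 arrays 0 were higher and 4 lower. The largest of the separated members was FGR, at 5.49 to 6.22 in T-derived and 4.77 to 5.55 in B-derived arrays. B cell surface antigens had 7 of 28 higher and 7 lower (25% each). CD53, a tetraspanin, gave 10.75 to 10.99 in T-derived arrays, against 5.59 to 7.36 in L428 and L1236 and 10.54 and 10.38 in KM-H2. Of the 3 CD53 probe sets, 2 differed by over 1 log2. Germinal centre genes had 2 of 18 higher (11.1%) and 8 lower (44.4%), with 3 above (16.7%) and 4 below (22.2%) all B-derived lines, and a median of -0.07. The 8 became 5 without L540Cy or without L428 replicate 2. PAG1, an adaptor that holds back SRC kinases, gave 4.27 to 6.99 in T-derived and 6.40 to 10.35 in B-derived arrays. Plasma cell genes had 6 of 13 higher (46.2%) and 2 lower (15.4%), with 4 above (30.8%) and 1 below (7.69%). XBP1, the factor of the secretory programme, gave 10.55 to 10.84 in T-derived and 8.77 to 10.40 in B-derived arrays, and ELL2 gave 11.72 to 12.47 in T-derived and 10.27 to 11.64 in B-derived arrays.

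Antigen presentation genes were higher mostly in HDLM2. By limma over line means 0 were called in either MHC list, with 1 class II and 2 class I genes higher at an unadjusted p under 0.05. In MHC class II, 9 of 16 were higher (56.2%) and 2 lower (12.5%) against duplicate arrays, where all genes had 16.1% and 19%. The median was 0.38, but 1 gene, RFXAP, lay above all B-derived lines (6.25%) and 0 below, against 16.9% and 8.75% of all genes. HDLM2 carried the result: it lay above all B-derived lines in 11 of the 16 genes (68.8%, against 30.9% of all genes). L540 did so in 1 (6.25%, against 33.9% of all genes). On the numbered arrays, with HDLM2 as the T-derived line, 14 were higher with the replicate block and 12 without it. HLA-DRA measured 13.93 and 13.98 in HDLM2, 12.13 in L540 and 11.91 in L540Cy, against 13.19 and 12.98 in L428, 10.90 and 10.69 in L1236 and 13.63 and 13.37 in KM-H2. CD74, its chaperone, gave 14.52 and 14.79 in HDLM2 and 13.42 and 13.31 in L540 and L540Cy, against 12.47 to 13.90 in B-derived arrays. In MHC class I processing, 8 of 14 were higher (57.1%) and 3 lower (21.4%), with 4 above (28.6%) and 1 below (7.14%) all B-derived lines. Without the L540 array the balance turned to 4 higher and 5 lower, and without L540Cy it was 9 higher and 3 lower. HDLM2 lay above all B-derived lines in 8 of the 14 genes (57.1%) and below in 2 (14.3%), against 30.9% and 22.3% of all genes. L540 lay above in 4 (28.6%) and below in 2 (14.3%), against 33.9% and 20.2% of all genes. HLA-E gave 12.08 to 13.38 in T-derived and 11.39 to 11.95 in B-derived arrays, and 1 of its 3 probe sets differed by over 1 log2.

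Interferon-stimulated genes had 15 of 34 higher (44.1%) and 7 lower (20.6%) against duplicate arrays, where all genes had 16.1% and 19%. In this list 6 lay above (17.6%) and 3 below (8.82%) all B-derived lines, near the 16.9% and 8.75% of all genes. The median was 0.13. Without L540Cy 16 were higher and 4 lower with a median of 0.39, and without the L540 array 12 were higher and 9 lower with a median of 0.015. IRF7, the regulator of type I interferon genes, gave 9.05 to 10.56 in T-derived and 6.25 to 7.85 in B-derived arrays, and GBP2 gave 9.51 to 11.70 in T-derived and 7.26 to 9.002 in B-derived arrays. MX2, an antiviral GTPase, gave 5.36 and 5.38 in HDLM2, 7.18 in L540 and 5.25 in L540Cy, against 6.74 to 9.81 in B-derived arrays. HDLM2 lay above all B-derived lines in 20 of the 34 genes (58.8%) and below in 4 (11.8%), against 30.9% and 22.3% of all genes. L540 lay above in 8 (23.5%) and below in 13 (38.2%), against 33.9% and 20.2% of all genes.

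Genes of DNA replication and mitosis were mostly lower, the highest share of the 25 lists with all 10 arrays, a rank that did not hold without L540Cy. Of 34 measured, 20 were lower (58.8%, against 19% of all genes) and 3 higher against duplicate arrays. In 12 of them both T-derived lines lay below all B-derived lines (35.3%, against 8.75% of all genes), in 2 above, and the median was -0.49. By limma over line means 0 passed, with 1 higher and 7 lower at an unadjusted p under 0.05. L540Cy carried part of the count: without that array 5 were higher and 12 lower, and the median was -0.19. At 35.3% lower the list then stood below the T lineage transcription factors, at 47.4%. Without the L540 array 1 was higher and 21 were lower. In the numbered arrays, with HDLM2 as the T-derived line, 18 were lower with the replicate block and 13 without it, and without it the share of 38.2% was below the 42.1% of the T lineage factors. Without HDLM2 replicate 1 the polycomb list led, at 55.6% against 52.9%, and among genes reaching 6 log2 chemokines led, at 63.6% against 58.8%. CDT1, which loads the replicative helicase, measured 9.27 and 8.85 in HDLM2, 9.29 in L540 and 8.25 in L540Cy, against 11.03 and 10.71 in L428, 10.36 and 9.90 in L1236 and 11.30 and 11.12 in KM-H2. The helicase subunit MCM7 gave 9.87 to 11.41 in T-derived and 11.85 to 12.38 in B-derived arrays, and MCM4 gave 8.64 to 10.07 in T-derived and 9.77 to 10.60 in B-derived arrays. MKI67, the proliferation antigen Ki-67, went the other way, with line means of 10.79 in HDLM2 and 10.84 in L540, against 9.44 to 10.29 in the B-derived lines. MKI67 was named after its values were seen. Growth rate and cell cycle were not measured here, and their part in these levels was not tested.

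Polycomb and chromatin modifiers had 5 of 27 higher (18.5%) and 13 lower (48.1%) against duplicate arrays, where all genes had 16.1% and 19%. In this list 3 lay above (11.1%) and 6 below (22.2%) all B-derived lines, against 16.9% and 8.75% of all genes. The median was -0.30. The 5 became 3 when L540Cy, the L540 array, either array of L428, KM-H2 replicate 2 or HDLM2 replicate 2 was left out, with 9 to 12 lower. SATB1, a genome organiser of developing T cells, measured 13.07 and 12.76 in HDLM2, 11.72 in L540 and 12.09 in L540Cy, against 6.59 to 9.51 in B-derived arrays, a difference of 4.19 ± 0.93 (SE over lines, adjusted p = 0.542; 8.31e-08 against duplicate arrays). TET2, which oxidises methylated cytosine, gave 6.998 and 7.64 in HDLM2, 8.73 in L540 and 5.38 in L540Cy, against 8.08 to 9.02 in B-derived arrays. L540 and its subline lay on both sides of most B-derived arrays. The maintenance methyltransferase DNMT1, named after its value was seen, had line means of 10.81 in HDLM2 and 11.15 in L540, against 11.38 to 11.86 in the B-derived lines.

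Homeobox and T cell leukaemia genes had 8 of 34 higher (23.5%) and 10 lower (29.4%) against duplicate arrays, where all genes had 16.1% and 19%. In this list 8 lay above (23.5%) and 6 below (17.6%) all B-derived lines, against 16.9% and 8.75% of all genes. The largest separations were downward. MEIS1, a cofactor of HOX proteins, gave 3.86 and 4.22 in HDLM2, 4.83 in L540 and 4.93 in L540Cy, against 7.90 to 8.77 in B-derived arrays, a difference of -3.89 ± 0.36 (SE over lines, adjusted p = 0.164; 1.46e-07 against duplicate arrays). POU4F1, a neural POU factor, gave 3.88 to 4.92 in T-derived and 6.51 to 7.73 in B-derived arrays. SIX4 gave 4.60 to 6.28 in T-derived and 7.49 to 9.01 in B-derived arrays, but 1 of its 2 probe sets differed by only -0.60.

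Integrins and adhesion genes had 11 of 31 higher (35.5%) and 9 lower (29%), against 16.1% and 19% of all genes. In this list 6 lay above (19.4%) and 1 below (3.23%) all B-derived lines, against 16.9% and 8.75% of all genes. ALCAM, an adhesion molecule, gave 9.12 and 8.91 in HDLM2 and 3.70 and 4.03 in L540 and L540Cy, against 9.97 to 10.96 in B-derived arrays. AP-1 factors had 4 of 16 higher (25%) and 2 lower (12.5%), with FOSL2 at 6.56 to 8.15 in T-derived and 5.75 to 6.29 in B-derived arrays. Markers of other cell types were checked as well. Myeloid markers had 5 of 21 higher (23.8%) and 2 lower (9.52%), with 3 higher without L540Cy, L1236 replicate 1 or L428 replicate 2. Their medians were 5.10 to 5.22 per T-derived array and 4.86 to 5.37 per B-derived array. Stromal and epithelial markers had 2 of 15 higher (13.3%) and 1 lower (6.67%), with medians of 5.60 to 5.78 per T-derived and 5.25 to 5.56 per B-derived array. Their part in the differences was not tested. ITGAX, an integrin of dendritic cells, gave 7.12 to 7.90 in T-derived and 5.62 to 6.15 in B-derived arrays. Of its 2 probe sets 1 differed by over 1 log2, and the other by 0.12.

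HDLM2 and L540 differed by 7 log2 or more in single genes such as NIBAN1, CCL17, ALKAL2 and GZMB. Against duplicate arrays, 2917 genes were higher in HDLM2 (14.8%) and 2434 lower (12.3%), 27.1% in all, so that 54.5% of the calls were higher, against 41.3% with arrays centred on their medians. Of the lists, MHC class II had 11 of 16 genes higher in HDLM2 and 2 lower, and interferon-stimulated genes 18 of 34 higher and 8 lower. Cytotoxic genes had 2 of 16 higher and 3 lower, and chemokines 5 of 23 higher and 1 lower. With both directions together these were near the 27.1% of all genes called. The few chemokine calls were mostly higher in HDLM2. The 5 largest differences upward were NIBAN1, HDGFL3, GNG2, CCL17 and PTPRK. NIBAN1, a stress-response gene, gave 11.89 and 11.90 in HDLM2 and 3.86 and 3.20 in L540 and L540Cy, a difference of 8.36 ± 0.13 (SE, adjusted p = 1.39e-08, limma). B-derived arrays gave 9.57 to 11.37 for NIBAN1, so L540 was the line apart. GNG2, a G protein subunit, had the same order, with 11.64 and 11.39 in HDLM2 and 3.76 and 3.59 in L540 and L540Cy, against 10.41 to 12.19 in B-derived arrays. CCL17 differed by 7.74 ± 0.26.

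Downward the largest were ALKAL2, XIST, G0S2, GZMB and YBX3. ALKAL2, a ligand of the receptor tyrosine kinases ALK and LTK, gave 3.65 and 3.92 in HDLM2, 12.43 in L540 and 12.13 in L540Cy, against 3.57 to 3.93 in B-derived arrays. The difference was -8.49 ± 0.15 (SE, adjusted p = 2.9e-08, limma), and L540 was the line apart again. G0S2, an inhibitor of fat breakdown, gave 4.92 and 5.38 in HDLM2, 11.86 in L540 and 12.86 in L540Cy, against 4.86 to 4.94 in B-derived arrays. GZMB differed by -7.02 ± 0.21, with 3.71 between L540Cy and L540, so that its level was not shared by the parent and its subline. YBX3, an RNA-binding cold shock protein, gave 6.21 and 6.38 in HDLM2, 13.03 in L540 and 13.24 in L540Cy, against 3.72 and 3.45 in L428 and 12.10 to 12.46 in the other B-derived arrays.

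**Figure D5:**
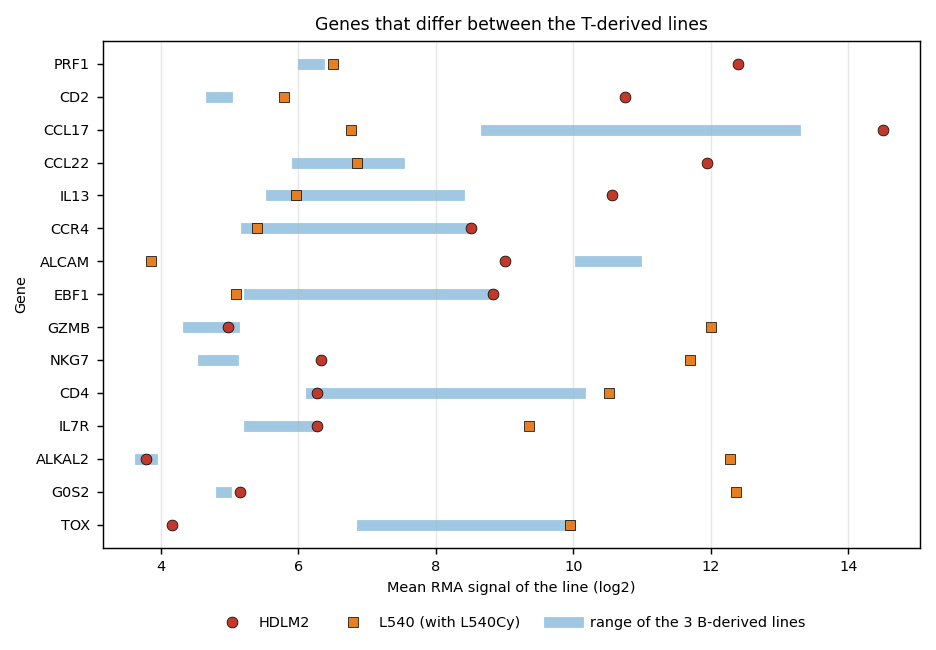
Mean RMA signal (log2, horizontal axis) of 15 genes in HDLM2 (circles) and L540 averaged with L540Cy (squares), with bars for the range of the 3 B-derived line means. PRF1, CD2 and CCL17 are high in HDLM2 and GZMB, NKG7, ALKAL2 and G0S2 in L540. The genes were picked after their values were seen.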

How the data were processed

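The values are log2 signals per probe set that the authors made with RMA (background correction, normalization between arrays and summary of probes), per the submitters' processing notes. Neither software nor version is given in the sources used here. Because RMA flattens low signals, a change from or to a dim level is understated. The number of arrays limits the precision.

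Of 54675 probe sets, 62 controls were left out. A single gene symbol was listed for 41091, several for 1801 and none for 11721. Of the first, 41037 matched RefSeq (GRCh38.p14) by Entrez identifier, 0 with a new symbol. Each gene was read from its brightest probe set (mean of the 15 arrays), giving 19735 genes, 10513 with more than 1 probe set. Some list members were not analysed here, and 579 of 626 list entries had a value.

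Arrays were averaged per line, and L540 with L540Cy. Line means were compared with lmFit and eBayes of limma 3.58.1 (R 4.3.3), and two-sided p-values were adjusted by Benjamini and Hochberg's method across the 19735 genes, with calls at an adjusted p under 0.05. A second limma fit of the 10 arrays, with 1 mean per line, took the spread from the 4 lines with 2 arrays and assumed that L540 and L540Cy vary like them. HDLM2 against L540 came from that fit. Differences are T-derived minus B-derived, or HDLM2 minus L540.

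Members, the 25 gene lists and tests were chosen with earlier results of these data known, and several lists share genes. The named genes were the 12 largest rises and 12 largest falls among calls over line means, filled to 12 with genes whose lines do not overlap; up to 3 calls of a list, or else its 3 largest members without overlap; the 5 largest calls each way for HDLM2 against L540; and fixed markers. Others are said to be named after their values were seen.

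Replicate numbers in the labels paired the arrays: deviations of same-numbered arrays from their line means correlated at 0.247 to 0.355 over the 6 pairs of duplicated lines. Alternatives changed the subline, the block, the samples in the fit, the probe set, a filter at 6 log2, the normalization, the variance and the threshold, and left out lines and arrays. Promoter sequences are from RefSeq.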

Additional observations from a re-analysis of the deposited data

Results flagged for a closer look

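In 3 of the 141 groups of 4 or 6 arrays examined, 1 array stood far from the others by Dixon's criterion. Chance alone meets that criterion in about 1 group in 20. A range of at least 1 log2 was also required, and the rate does not take it into account. MX2, an antiviral GTPase, measured 7.18 in L540, with 5.38 as the next of the 4 T-derived arrays. MCM4, a subunit of the replicative helicase, measured 10.07 in L540, with 8.86 as the next T-derived array. FOS, an AP-1 factor, measured 6.06 in L428 replicate 1, with 5.34 as the next of the 6 B-derived arrays.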

How the results depend on the processing

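Over line means, 9 genes were higher and 1 lower in T-derived lines. The counts were 25 and 11 where L540Cy counted as a line of its own, 29 and 10 with all 8 lines of origin in the fit, 117 and 105 with the line as a random block and no replicate block, 4 and 0 among genes reaching 6 log2, 3 and 0 where the difference had to exceed 1 log2 (treat), and 6 and 0 without the L540 array (L540Cy kept). On the 8 numbered arrays they were 215 and 106 with the replicate block and 336 and 207 without it, and that last fit was chosen after seeing the data. Leaving out 1 line or array gave 0 to 10 higher and 0 to 1 lower. The cause of these moves was not tested, except that fits with fewer lines have fewer degrees of freedom. The other alternatives, and all of those for the array test and for HDLM2 against L540, kept the counts within 1.5 times. For the array test the range was 2459 to 3702 higher and 3079 to 4052 lower. On the same arrays the block moved 2 list counts by more, cytotoxic genes lower (2 with it, 0 without) and replication genes higher (5 with it, 3 without), and no other. With HDLM2 alone and the block, 7 B cell receptor genes and 7 AP-1 genes were higher, against 4 of each in the array test, and with or without it 5 chemokines were higher, against 2, and 2 cytotoxic genes, against 4; without the block 3 plasma cell genes were, against 6. Over all named genes and list medians, 3668 values kept their side of the threshold or, for medians, stayed within the spread between lines, 108 passed it, 102 lost it, 0 called values reversed and 2 medians moved by more, both on filtering at 6 log2, cytotoxic genes to 3.24 and chemokines to -1.43. With arrays centred, the median of all genes was 0.09, against 0.04. Only 2 and 3 lines stood on the sides, and no line-mean result can be checked in further lines here.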

Other observations

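Some of the largest separations lay outside the lists. CLDN14, a tight junction claudin, had line means of 12.28 in HDLM2 and 9.08 in L540, against 4.90 to 5.26 in the B-derived lines. COL4A2, a basement membrane collagen chain, had 10.82 in HDLM2 and 8.72 in L540, against 4.14 in L428, 3.96 in L1236 and 5.56 in KM-H2. GATM, the first enzyme of creatine synthesis, had 9.13 in HDLM2 and 10.32 in L540, against 4.83 to 4.88 in the B-derived lines. TEAD1, a factor of the Hippo pathway, had 4.44 in HDLM2 and 4.25 in L540, against 9.19 in L428, 10.02 in L1236 and 7.09 in KM-H2. All 4 passed the array test, did not overlap between lines and were picked after their values were seen.

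Of 157 genes that passed the array test, did not overlap and differed by at least 3 log2, 4 pairs were next to each other among the genes measured and moved the same way. They were SEPTIN10 with SOWAHC on chromosome 2, higher in T-derived lines, and 3 pairs lower there. Those 3 pairs were RGS1 with RGS13 and RGS13 with RGS2 on chromosome 1, and SAMSN1 with NRIP1 on chromosome 21. SAMSN1, an adaptor that restrains B cell activation, had 5.50 in HDLM2 and 4.33 in L540, against 12.52 in L428, 9.12 in L1236 and 8.10 in KM-H2. NRIP1, a nuclear receptor corepressor, had 3.67 in HDLM2 and 3.72 in L540, against 9.24 in L428, 3.85 in L1236 and 8.64 in KM-H2.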
